A study of Mus musculus with 6 samples.

Results

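T cells whose T cell receptor alpha chain was found in both mice of the study numbered 686, of 5689 T cells with an alpha chain. 355 of them came from 1 heterozygous 564Igi mouse and 331 from 1 WT mouse. Barcodes counted as T cells were those with a cell call for T cell receptors but none for B cell receptors in their mouse. Its primary alpha chain was the high-confidence, productive TRA contig with the most unique molecular identifiers (UMIs), at least 2. A chain was shared when the same CDR3 amino acids with the same J gene were also a primary alpha chain in the other mouse. Chains that joined TRAV11 or TRAV11D to TRAJ18, the invariant receptor of natural killer T cells, were left out (57 cells in 564Igi and 30 in WT), so that 3286 cells in 564Igi and 2316 in WT were compared. The members were thus chosen by measured values, namely their CDR3 and J gene, and differences in these are described and not tested.

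Both libraries were made from splenocytes depleted of cells carrying Ter-119, a marker of erythroid cells, with a 5' single-cell V(D)J kit. The 564Igi mouse was heterozygous for Ightm1(Igh564)Tik and Igktm1(Igk564)Tik on a B6.129S4(Cg) background, in which rearranged heavy and kappa genes of an autoreactive antibody are inserted into the B cell receptor loci, and the labels name no change at its T cell receptor loci. The WT mouse was C57BL/6JRj. Age, sex and the genotype of the dam were not given in the sources used here. With 1 mouse per genotype there is no test between mice, and cells of a mouse are not replicates. Values in parentheses after a share give its exact (Clopper-Pearson) 95% interval. For a difference between shares, the limits of both were combined by Newcombe's method. Such intervals hold only the error of counting cells.

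The alpha chain of a T cell receptor is built by joining a V gene to a J gene, without a D segment. Enzymes trim both ends and add bases that no germline gene holds, and the join lies in CDR3, the loop that contacts the peptide in the antigen groove. CDR1 and CDR2 come from the V gene alone. The beta chain has V, D and J segments and more added bases. A CDR3 found in several individuals is called public. The alpha locus rearranges on both chromosomes and can rearrange repeatedly in a thymocyte, from J genes next to the V genes towards those next to the constant gene.

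Contigs in the T cell receptor tables carried 32922893 reads (114433 UMIs) in 564Igi and 30190690 reads (86409 UMIs) in WT. A primary alpha chain was found in 73.1% of 4573 T cells in 564Igi and 71.9% of 3263 in WT, at a median of 4 UMIs in each. The alpha constant gene TRAC was named in 3284 of the 3286 cells compared in 564Igi and 2309 of 2316 in WT. No gene expression table was used, so CD4 and CD8 cells were not told apart. 23 barcodes were T cells in both mice. Of the 16 with an alpha chain in both, 0 held the same chain in both. No member's alpha CDR3 was listed under its own barcode in the other mouse's table.

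A few of the shared chains show what the match on amino acids holds. In the lines below the deposited CDR3 nucleotides run from the codon of the first cysteine, and capitals mark the positions at which the forms of a chain differ. All lie in the alpha locus on chromosome 14. The chain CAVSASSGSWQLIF, joined to TRAJ22, had 1 nucleotide form in 3 cells in 564Igi and 4 in WT, with TRAV3 genes only.
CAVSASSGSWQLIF, 564Igi and WT, TRAV3: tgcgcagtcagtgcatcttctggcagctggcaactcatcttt
The chain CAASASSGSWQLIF, also with TRAJ22, was the most frequent one, in 6 cells in 564Igi and 4 in WT. It had 4 forms, with V genes of families TRAV14, TRAV7 and TRAV5, of which 1 form was found in both mice.
564Igi and WT, TRAV14: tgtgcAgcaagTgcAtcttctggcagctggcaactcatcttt
564Igi, TRAV7-2: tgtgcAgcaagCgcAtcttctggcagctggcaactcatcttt
WT, TRAV14N-3: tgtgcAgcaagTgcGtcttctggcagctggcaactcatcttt
WT, TRAV5D-4: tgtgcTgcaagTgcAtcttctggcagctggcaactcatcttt
The shorter chain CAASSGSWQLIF, with TRAJ22, had 4 cells in 564Igi and 3 in WT and 5 forms. The forms differ around the join, whose place varies between them from the codon of the first alanine to that of the first serine.
564Igi TRAV14-1, WT TRAV7-2: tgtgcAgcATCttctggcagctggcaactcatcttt
564Igi TRAV7-2, WT TRAV14N-3: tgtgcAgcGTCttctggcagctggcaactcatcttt
564Igi, TRAV7-4: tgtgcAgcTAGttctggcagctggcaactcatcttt
564Igi, TRAV8-1: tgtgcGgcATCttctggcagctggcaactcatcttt
WT, TRAV4D-4: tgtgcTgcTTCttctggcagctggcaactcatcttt
The chain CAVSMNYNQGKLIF, with TRAJ23, had 4 cells in 564Igi and 3 in WT and 4 forms, and 3 of the forms were found in both mice, with V genes of 3 families.
564Igi TRAV3D-3, WT TRAV3-1: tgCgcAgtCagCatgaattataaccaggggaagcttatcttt
564Igi, TRAV3D-3: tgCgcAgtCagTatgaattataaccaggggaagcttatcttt
564Igi TRAV7D-5, WT TRAV7D-3: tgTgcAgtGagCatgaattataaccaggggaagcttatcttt
564Igi and WT, TRAV9D-3: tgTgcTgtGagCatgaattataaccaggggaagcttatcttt
By the way they are marked, the letters after the last capital are the same in all forms of a chain, and a chain with 1 form has no capitals. The capitals lie in the V part and around the join. The J end of TRAJ22 estimated from all alpha chains of the gene reaches past some of the capitals, so the forms keep J ends of different lengths.
TRAJ22, estimated J end: gcatcttctggcagctggcaactcatcttt

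The shared set held 260 distinct chains. They made up 8.71% (7.73 to 9.78) of the 2984 distinct alpha chains in 564Igi and 12.1% (10.8 to 13.6) of the 2143 in WT. By cells, the shares were 10.8% (9.76 to 11.9) in 564Igi and 14.3% (12.9 to 15.8) in WT. A mouse's share grows with the number of cells sequenced in the other mouse, so these shares do not compare the genotypes. Beta chains matched in the same way in 3.17% (2.66 to 3.75) of 4166 cells in 564Igi and 4.14% (3.46 to 4.92) of 2968 in WT. Most shared alpha chains were rare, with 169 of the 260 (65%) seen in 1 cell of each mouse, and the highest number of cells in a chain was 10.

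Most shared chains did not have the same V gene in both mice. The same V gene name was found in both mice for 62 of 260 chains, or 23.8% (18.8 to 29.5). Part of the alpha V locus is duplicated in mice, and copies marked D or N can be hard to tell apart. After these copies were merged, 97 chains (37.3%, 31.4 to 43.5) had a V gene in common, and 146 (56.2%, 49.9 to 62.3) a V family in common. Over all their cells, 51 chains used 1 merged V gene and 49 used 3 or more, up to 6. The sequences of CDR1 and CDR2 were not compared. The V gene encodes the start of the CDR3, so its agreement is not independent of how the chains were chosen.

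Most shared chains were also written with different nucleotides. A nucleotide form found in both mice existed for 103 of 260 chains, or 39.6% (33.6 to 45.8), and for 43 of the 169 chains (25.4%, 19.1 to 32.7) with 1 cell in each mouse. Over both mice, 51 chains had 1 form, 164 had 2, 31 had 3, 10 had 4 and 4 had 5. The 4 chains with 5 forms were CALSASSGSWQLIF, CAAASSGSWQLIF and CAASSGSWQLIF, all with TRAJ22, and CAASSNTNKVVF with TRAJ34. Of the 103 chains with a common form, 67 (65.0%, 55.0 to 74.2) also had a merged V gene in common, as against 30 of the 157 without one (19.1%, 13.3 to 26.1).

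**Figure D1:**
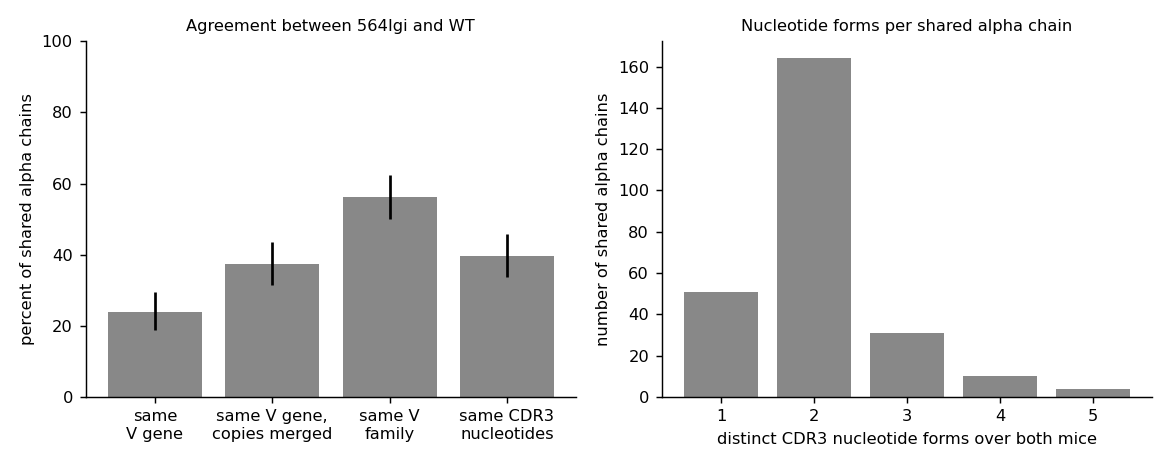
Left, percent of the 260 shared alpha chains with the same V gene name, the same V gene after D and N copies are merged, the same V family, or the same CDR3 nucleotides in 564Igi and WT, with exact 95% intervals. Right, number of shared chains with 1 to 5 distinct nucleotide forms over both mice. The V gene name agreed in 23.8% of chains, and 164 chains had 2 forms.

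Pairs of cells of 1 mouse with the same shared chain but different beta chains mostly differed in V gene and in nucleotides. Such pairs of cells had the same merged V gene in 21 of 130 pairs in 564Igi (16.2%) and 19 of 81 in WT (23.5%). For pairs across the mice it was 129 of 507 (25.4%), and for pairs with the same unshared chain it was 64 of 198 in 564Igi (32.3%) and 20 of 76 in WT (26.3%). The same nucleotides were found in 37 of 130 pairs in 564Igi (28.5%), 18 of 81 in WT (22.2%) and 151 of 507 across the mice (29.8%). For unshared chains, the same nucleotides were found in 40 of 198 such pairs in 564Igi (20.2%) and 21 of 76 in WT (27.6%). Chains with many cells give many of these pairs, so the percentages carry no interval.

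Shared CDR3 loops were shorter and spread over fewer lengths. Of the 260 chains, 223 had 12 to 14 amino acids, with 13 the most frequent length (93 chains). In 564Igi the mean length was 13.1 ± 1.24 amino acids in cells with shared chains and 13.5 ± 1.54 in cells with unshared chains (SD over 355 and 2931 cells). In WT it was 13.01 ± 1.26 with shared and 13.6 ± 1.51 with unshared chains (SD over 331 and 1985 cells). At most 13 amino acids were found in 63.1% of shared and 45.9% of unshared cells in 564Igi, a difference of 17.2 points (11.6 to 22.5). In WT these shares were 65.0% and 46.2%, a difference of 18.7 points (12.9 to 24.3). The 3 shortest shared chains, of 5 or 6 amino acids, all used TRAJ44, where the deposited CDR3 ended at differing positions.

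The joins of shared chains held few bases outside the germline ends. Germline V and J ends of the CDR3 were estimated from the commonest bases over all distinct alpha chains of each gene, and bases matching neither end were counted as non-germline. The median was 1 non-germline base in shared cells of both mice, against 3 in unshared cells in 564Igi and 2 in WT. No non-germline base was left in 40.1% of shared and 15.2% of unshared cells in 564Igi, a difference of 24.9 points (19.6 to 30.4). None was left in 38.5% of shared and 15.1% of unshared cells in WT, a difference of 23.4 points (17.8 to 29.1). At most 3 such bases were found in 88.7% of shared and 67.8% of unshared cells in 564Igi and in 93.0% and 66.3% in WT. The J end was kept whole in 34.7% of shared and 20.5% of unshared cells in 564Igi, and in 33.0% and 18.9% in WT.

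**Figure D2:**
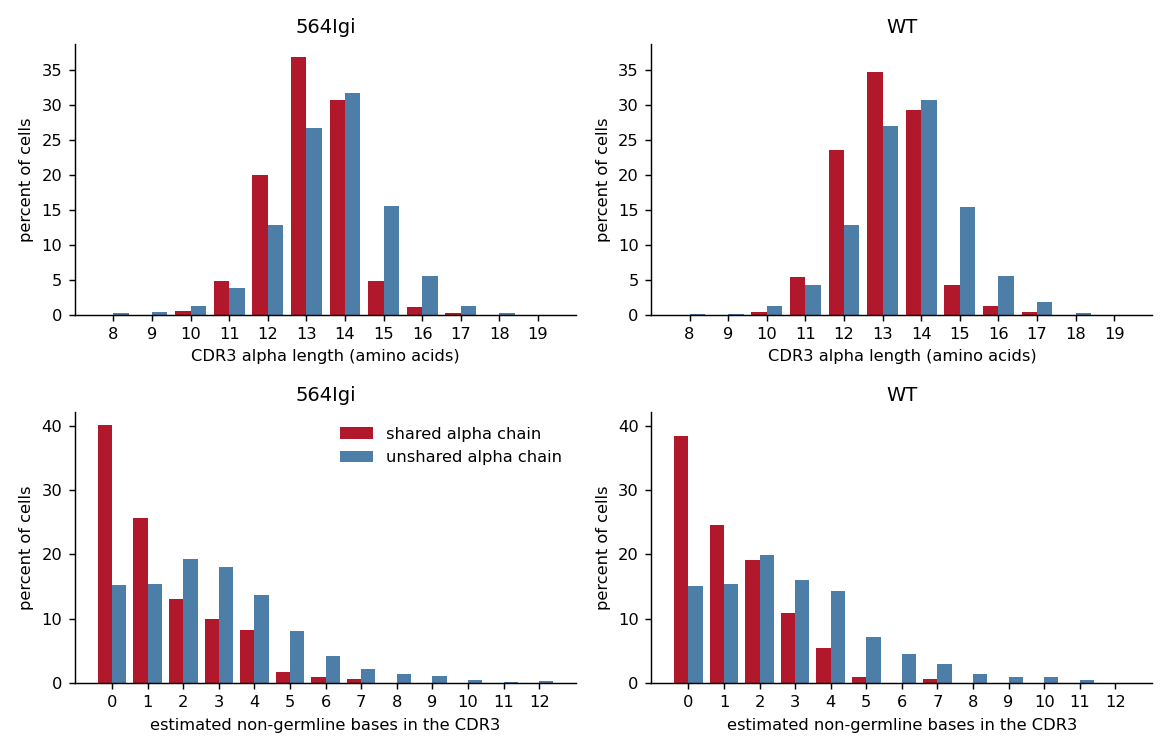
Percent of cells by CDR3 alpha length in amino acids (top) and by estimated non-germline bases (bottom), for 564Igi (left) and WT (right), in cells with shared (red) and unshared (blue) alpha chains; lengths outside 8 to 19 amino acids and more than 12 bases are not drawn. Shared cells had no non-germline base in 40.1% (564Igi) and 38.5% (WT), against 15.2% and 15.1% of unshared cells.

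The same direction was found within single J genes for bases outside the germline ends. In 26 J genes of each mouse with at least 5 shared and 5 unshared cells, shared chains had fewer non-germline bases in 26 of 26 in 564Igi and 26 of 26 in WT. The match uses the CDR3 and the same shared chains enter both mice, so these counts describe the chosen chains and test nothing. The germline ends were estimated from all chains, with the shared ones included. The median difference between means was -1.49 bases (-2.95 to -0.305) in 564Igi and -1.53 (-2.94 to -0.60) in WT, where the values in parentheses are the lowest and highest over genes. Mean CDR3 length was shorter in shared chains for 20 of 26 genes in 564Igi, with a median difference of -0.381 amino acids. For WT it was shorter in 26 of 26, with a median of -0.419.

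**Figure D3:**
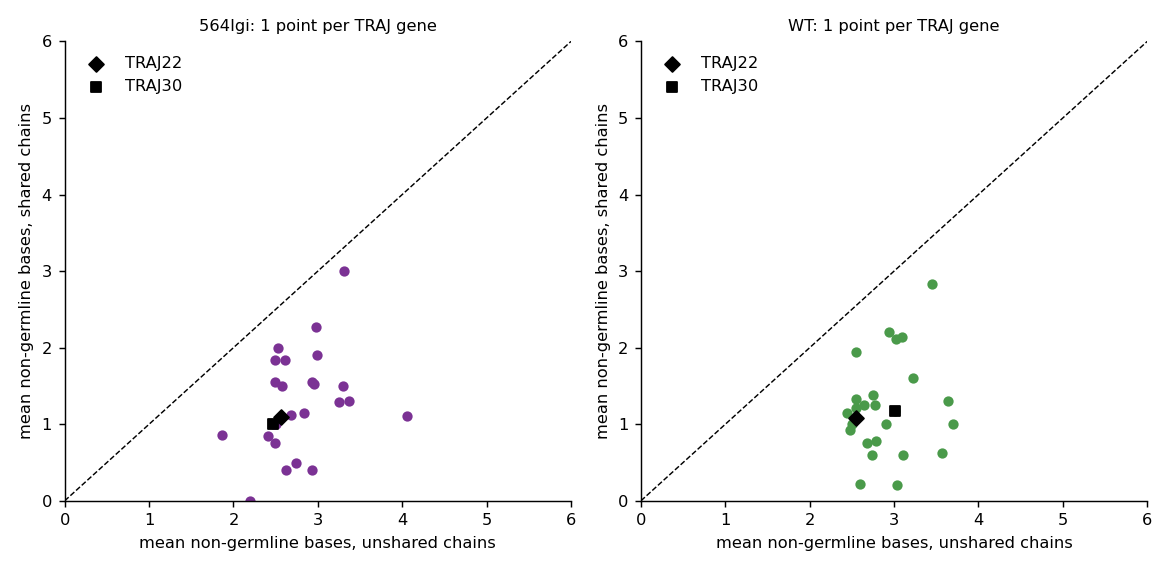
Mean estimated non-germline bases per TRAJ gene in shared chains (vertical) against unshared chains (horizontal), 1 point for each of 26 genes in 564Igi (left) and WT (right); the dashed line marks equal means, the diamond TRAJ22 and the square TRAJ30. All points lie below the line.

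A pair of J genes stood out among the shared chains. TRAJ22 (chromosome 14, 54197248 to 54197307 in GRCm38) was used by 14.1% (10.6 to 18.1) of shared and 4.23% (3.53 to 5.02) of unshared cells in 564Igi, and by 12.1% (8.78 to 16.1) and 3.98% (3.16 to 4.94) in WT. TRAJ30 (chromosome 14, 54189866 to 54189924) was used by 7.61% (5.07 to 10.9) of shared and 2.63% (2.08 to 3.27) of unshared cells in 564Igi, and by 8.76% (5.95 to 12.3) and 3.27% (2.54 to 4.15) in WT. Of 39 J genes with at least 20 cells in each mouse, these were the 2 (5.13%) that were higher with shared chains, without overlap of the intervals, in both mice. The match includes the J gene, so the mice are tied and nothing is read from this count. Only 1 gene was left when the V gene had to match as well, when the nucleotides had to match or at a minimum of 5 UMIs. With the V gene matched as well, the TRAJ30 difference was 3.99 points (-0.00268 to 10.4) in 564Igi and 0.555 points (-2.66 to 6.40) in WT, against 4.98 and 5.49 points without that match. Of 174 TRAJ22 cells in 564Igi 28.7% had a shared chain, and of 119 in WT 33.6%.

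TRAJ22 gave 23 of the 260 shared chains, TRAJ31 21 and TRAJ30 18. The full tail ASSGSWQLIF was present in 80% (66.3 to 89.97) of 50 shared and 27.4% (19.8 to 36.2) of 124 unshared TRAJ22 cells in 564Igi. In WT it was present in 77.5% (61.5 to 89.2) of 40 shared and 20.3% (12.04 to 30.8) of 79 unshared cells. Counted by distinct chain, 14 of the 23 shared TRAJ22 chains ended in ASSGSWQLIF, 21 in SSGSWQLIF and 23 in SGSWQLIF. Distinct unshared TRAJ22 chains were not counted in this way. The tail is part of the matched CDR3 and the same 23 chains enter both mice, so the shares by cell are described only.

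TRAJ6 (chromosome 14, 54212688 to 54212749) was at the other extreme, the only one of the 39 J genes (2.56%) that was lower in both mice by this rule. A shared chain was found in 0 of its 55 T cells in 564Igi and 0 of 47 in WT, which allows a share of up to 5.45% in 564Igi and 6.38% in WT (3 cells). The upper ends of the exact intervals, which the plot along the locus uses, are 6.49% in 564Igi and 7.55% in WT. Under the same 3 alternatives no J gene was lower in both mice (0 genes). TRAJ11 and TRAJ58 also had 0 shared cells, of 46 and 31 cells in 564Igi and of 21 and 29 in WT, which allows up to 6.52% and 9.68% in 564Igi and up to 14.3% and 10.3% in WT. Over all J genes, 37 of 43 J genes gave a shared chain. By place in the locus, J genes numbered 20 to 39, in the middle, were used by 60.6% of shared and 46.4% of unshared cells in 564Igi and by 61.3% and 45.8% in WT. Genes numbered 40 and over, on the V gene side, were used by 20% and 28.9% in 564Igi and by 19.3% and 28.4% in WT. Genes numbered under 20 were used by 19.4% and 24.7% in 564Igi and by 19.3% and 25.7% in WT. The middle group holds both TRAJ22 and TRAJ30. Without these genes it made up 38.9% of shared and 39.5% of unshared cells in 564Igi, a difference of -0.67 points (-6.08 to 4.91), and 40.5% and 38.6% in WT, a difference of 1.89 points (-3.87 to 7.80).

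**Figure D4:**
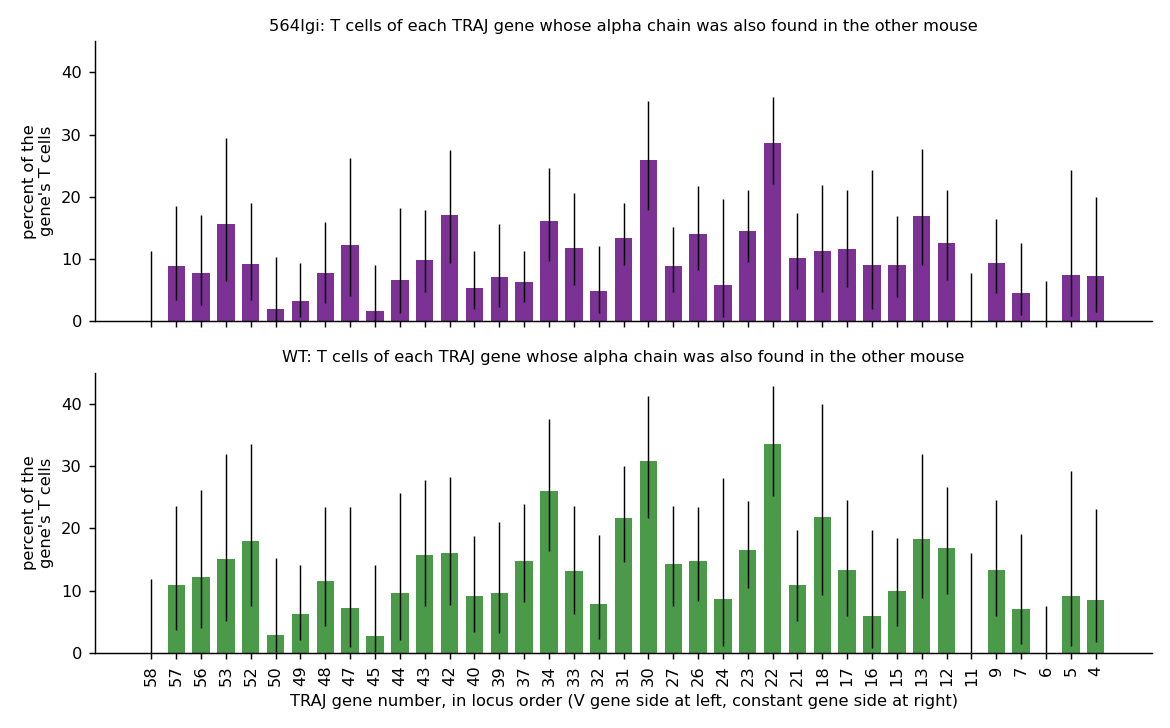
Percent of the T cells of each TRAJ gene whose alpha chain was also found in the other mouse, with exact 95% intervals, for 564Igi (top) and WT (bottom), in the 39 genes with at least 20 cells in each mouse and in locus order. TRAJ22 was highest in both mice, at 28.7% in 564Igi and 33.6% in WT, and TRAJ6, TRAJ11 and TRAJ58 were at 0.

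No V gene passed the same rule in both mice, of 46 with at least 20 cells in each (0%). In 564Igi 3 of 59 genes (5.08%) had intervals that did not overlap, and in WT 1 of 46 (2.17%). These 4 are named after their values were seen. TRAV10 was used by 4.79% of shared and 1.98% of unshared cells in 564Igi and TRAV14-1 by 3.38% and 1.16%. TRAV21-DV12, near the J genes, was used by 0 of 355 shared and 1.47% of unshared cells in 564Igi. TRAV16N was used by 0.604% of shared and 3.43% of unshared cells in WT. V genes with a D or N copy mark made up 43.4% of shared and 42.8% of unshared cells in 564Igi and 44.4% and 41.5% in WT, with both differences including 0. Families 17 to 23, next to the J genes, made up 3 of 355 shared cells (0.845%) and 3.31% of unshared cells in 564Igi. The difference was -2.46 points (-3.44 to -0.745). In WT they made up 4 of 331 (1.21%) and 3.32%, a difference of -2.12 points (-3.36 to -0.116). The V gene is tied to the matched CDR3 and the same shared chains enter both mice, so these shares are described only.

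The start of the CDR3, part of what was matched, also differed in frequency. CAAS opened 32.1% (27.3 to 37.2) of shared and 14.9% (13.6 to 16.3) of unshared CDR3 loops in 564Igi and 28.7% (23.9 to 33.9) and 15.1% (13.6 to 16.8) in WT. The shared ones came from 16 V genes in 564Igi and 18 in WT. CAVS opened 14.9% of shared and 10.0% of unshared loops in 564Igi and 15.4% and 9.82% in WT. CALS opened 9.30% of shared and 10.3% of unshared loops in 564Igi and 8.76% and 10.6% in WT, with both differences including 0. Chains that join TRAV1 to TRAJ33, as in mucosal-associated invariant T cells, were found in 0 of 355 shared cells in 564Igi and 0 of 331 in WT, which allows up to 0.845% and 0.906%.

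The beta chain was not used to choose the cells, and no whole receptor was shared. Of 3085 distinct alpha and beta pairs in 564Igi and 2163 in WT, 0 were found in both mice by CDR3 amino acids and J genes, which allows up to 0.0972% and 0.139% (3 pairs). Among cells with a beta chain, the beta chain was also found in the other mouse in 12 of 334 shared cells (3.59%) and 90 of 2772 unshared cells (3.25%) in 564Igi, a difference of 0.346 points (-1.52 to 3.02). In WT it was 10 of 305 (3.28%) and 90 of 1883 (4.78%), a difference of -1.50 points (-3.50 to 1.32). Both intervals included 0, so a difference was not detectable at this number of cells.

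Beta CDR3 length averaged 13.7 ± 1.47 amino acids in shared and 13.7 ± 1.44 in unshared cells in 564Igi (SD over 334 and 2772 cells) and 13.7 ± 1.46 and 13.7 ± 1.47 in WT (SD over 305 and 1883 cells). None of the 20 TRBV genes with at least 20 cells had intervals that did not overlap, in 564Igi (0%) or in WT (0%). Here and in later counts the joint call TRBV12-2+TRBV13-2 counts as a gene. It was given to 8.68% of shared cells in 564Igi and 10.2% in WT. TRBV12 and TRBV13 together were used by 31.7% of shared and 31.1% of unshared cells in 564Igi and by 31.1% and 29.6% in WT. Of 12 TRBJ genes, 0 in 564Igi (0%) and 2 in WT (16.7%) had intervals that did not overlap. TRBJ1-6 was used by 5.90% (3.53 to 9.17) of shared and 2.55% (1.89 to 3.37) of unshared cells in WT, and by 3.59% and 2.99% in 564Igi. TRBJ1-3 was used by 2.30% (0.928 to 4.67) of shared and 5.89% (4.87 to 7.06) of unshared cells in WT, but by 8.38% (5.64 to 11.9) and 4.98% (4.20 to 5.85) in 564Igi. The TRBJ1 cluster as a whole was used by 41.0% of shared and 34.8% of unshared cells in 564Igi, 6.24 points apart (0.619 to 12.01). In WT it was used by 35.1% and 34.4%, 0.722 points apart (-5.06 to 6.76).

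**Figure D5:**
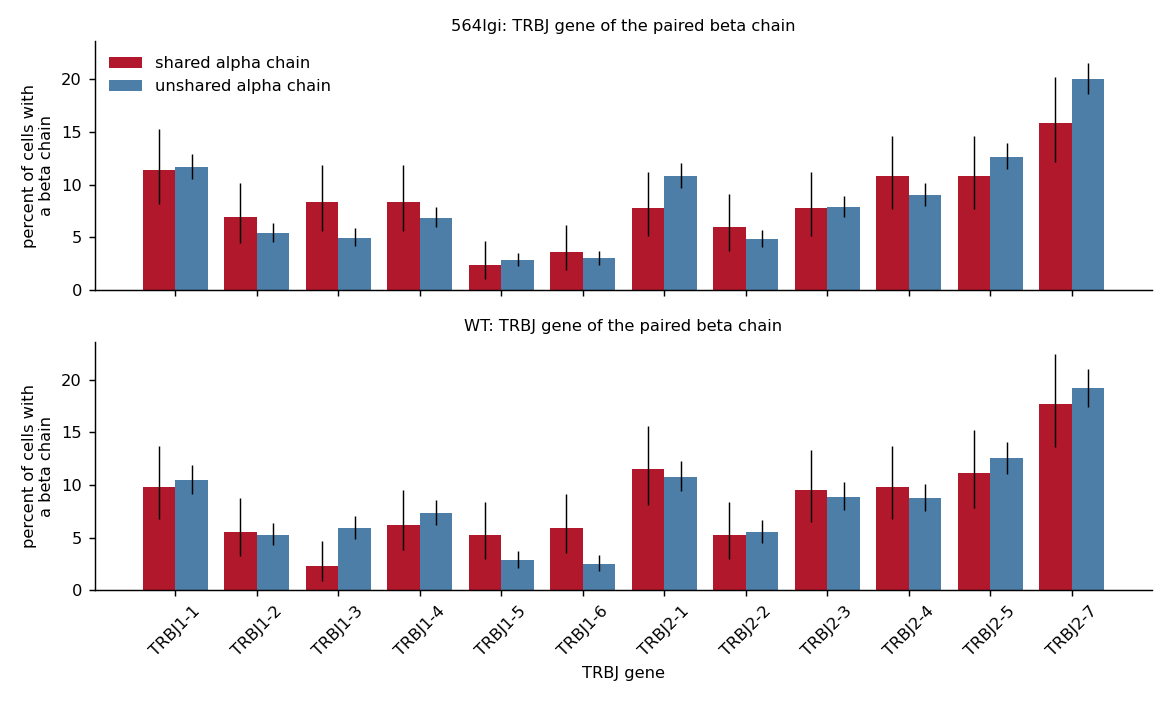
Percent of cells with a beta chain that use each TRBJ gene, in cells with shared (red, left of each pair) and unshared (blue) alpha chains, with exact 95% intervals, for 564Igi (top) and WT (bottom). TRBJ1-3 was at 8.38% with shared chains in 564Igi and 2.30% in WT, against 4.98% and 5.89% with unshared chains.

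Where a shared chain recurred, its cells had different beta chains. In 564Igi 44.2% of shared and 12.8% of unshared cells held a chain found in 2 or more cells of that mouse, and in WT 36.9% and 9.42%. In each of the 260 shared chains every beta chain found had different nucleotides, over 639 cells with a beta chain. Some of these chains had a beta chain in only 1 cell or in none, so nothing could be compared. Chains with 1 cell in each mouse could be compared across the mice only. Clonotypes of 2 or more cells, with the same alpha and beta nucleotides, held 0 of 334 shared cells in 564Igi and 0 of 305 in WT, which allows up to 0.898% and 0.984%. They held 1.26% of 2772 unshared cells in 564Igi and 2.12% of 1883 in WT. A chain seen in many cells of a mouse has more chances to be matched, and the part of this in the contrast was not tested.

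Among chains found in 2 or more cells of a mouse, more than 1 nucleotide form was present in 51 of 62 shared chains (82.3%, 70.5 to 90.8) and 127 of 169 unshared chains (75.1%, 67.9 to 81.5) in 564Igi, a difference of 7.11 points whose interval included 0 (-6.26 to 18.3). In WT it was present in 41 of 51 shared (80.4%, 66.9 to 90.2) and 51 of 85 unshared chains (60%, 48.8 to 70.5), a difference of 20.4 points (3.30 to 35.3). More cells can show more forms, so chains of exactly 2 cells were also compared. In 564Igi the shares were 82.1% (66.5 to 92.5) of 39 shared and 71.5% (63.2 to 78.9) of 137 unshared chains. In WT they were 75.7% (58.8 to 88.2) of 37 and 59.5% (47.4 to 70.7) of 74. At this equal cell number the intervals overlapped in both mice. Of the remaining unshared chains, 10 in 564Igi and 15 in WT had 1 form and 1 beta chain, against 0 of the shared chains in each mouse.

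Gene usage of the shared cells was also set side by side between the mice, which describes these libraries and is no test of the genotype. Of the genes used by at least 10 shared cells in either mouse, intervals did not overlap for 0 of 13 TRAV genes (0%), 0 of 14 TRAJ genes (0%), 0 of 19 TRBV genes (0%) and 1 of 12 TRBJ genes (8.33%). The exception was TRBJ1-3, in 28 of 334 shared cells in 564Igi (8.38%) and 7 of 305 in WT (2.30%), a difference of 6.09 points (2.46 to 9.85). In unshared cells none of 12 TRBJ genes (0%) met this rule. TRAV5-4, which did not meet the rule, was used by 9 shared cells in 564Igi (2.54%) and 17 in WT (5.14%). The difference was -2.60 points (-5.86 to 0.468). It had the same direction in unshared cells, at 1.74% in 564Igi and 2.67% in WT (-0.930 points, -1.85 to -0.0734).

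Alpha chains outside the rule were looked at as well. They too were split by whether they matched a primary alpha chain of the other mouse. Differences between the matching and the other chains are therefore not independent of the match and are described only. Further productive alpha chains of T cells were those with fewer UMIs than the primary one or, in tied cells, as many. They matched a primary alpha chain of the other mouse in 51 of 510 cases (10%, 7.54 to 12.9) in 564Igi and 44 of 343 (12.8%, 9.48 to 16.8) in WT. The matching ones had 1.20 ± 1.46 non-germline bases in 564Igi and 1.60 ± 1.82 in WT, against 4.10 ± 6.28 and 4.97 ± 7.68 in the others (SD over chains). TRAJ22 was used by 10 of the 51 matching (19.6%) and 15 of 459 other chains (3.27%) in 564Igi, but by 2 of 44 (4.55%) and 17 of 299 (5.69%) in WT. Primary alpha chains of barcodes called in both tables, which were left out as possible doublets, matched in 35 of 275 cases (12.7%, 9.03 to 17.3) in 564Igi and 43 of 248 (17.3%, 12.8 to 22.6) in WT. Those had 1.03 ± 1.58 non-germline bases in 564Igi and 1.30 ± 1.23 in WT, against 3 ± 2.42 and 2.71 ± 2.05 in the others.

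The edge of the rule is narrow. Of 2724 unshared chains in 564Igi 1300 (47.7%) lay 1 amino acid substitution away from a chain of the other mouse with the same J gene, and of 1883 in WT 1016 (54.0%) did. Only 1 further CDR3 in each mouse matched with another J gene. Of the shared cells, 48 in 564Igi and 47 in WT rested on exactly 2 UMIs. Of cells with an alpha chain of 1 UMI alone, which were not counted, 35 of 396 in 564Igi and 27 of 276 in WT matched. The median alpha chain UMI count was 5 in shared and 4 in unshared cells of both mice. A beta chain was found in 94.1% of shared and 94.6% of unshared cells in 564Igi and in 92.1% and 94.9% in WT, and more than 1 productive alpha chain in 16.1% and 14.7% in 564Igi and in 12.1% and 14.8% in WT.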

How the data were processed

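T cell and B cell V(D)J tables of 1 mouse per genotype were used, 4 of 6 libraries; gene expression was not analysed here. Per the file headers, each deposited table lists assembled contigs with raw read and UMI counts, a cell call, a confidence flag, gene names and the CDR3. Cell Ranger 3.0.2 and the build mm10 appear, without a role, in the submitters' processing notes. Only high-confidence, productive contigs with 2 or more UMIs entered. Barcodes called in both tables (373 in 564Igi, 345 in WT) were left out, and no doublet caller was run. Cells whose top alpha chains tied in UMIs (73 in 564Igi, 45 in WT) took the first contig.

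Germline ends of the CDR3 were read inwards for genes with at least 10 distinct chains, while the commonest base held 50% of the chains that still matched and at least 5 such chains were left. Ends were found for 75 V and 43 J genes, and 5534 of 5602 cells had an estimate. Contig sequences were not used, so P and N bases are not separated, and for TRAJ44, whose CDR3 ends vary, the estimate is not reliable. Genes were compared when at least 20 cells used them. The rule for named alpha V and J genes was intervals that did not overlap in both mice, and for beta genes in either mouse, up to 5 each way. Named chains came from the 10 with most cells, the 5 with most forms, any joining TRAV1 to TRAJ33 and any with a beta chain matched too; the last 2 kinds had no member. Coordinates come from RefSeq on GRCm38.p6, which is mm10, where all 90 alpha V and 43 alpha J genes matched by symbol.

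The members and lists were chosen with earlier results of these data known. CDR3 starts, the TRAJ22 tail, the comparison of 564Igi with WT within the shared cells, the chains outside the rule and the alternatives without tied cells or without TRAJ22 and TRAJ30 were added after the data had been seen. The functions were tested on simulated data. Computation was in Python 3.11.15 with SciPy 1.17.1 for intervals, NumPy 2.4.6, matplotlib 3.10.9 for figures and pandas 2.3.3.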

Additional observations from a re-analysis of the deposited data

Results flagged for a closer look

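Among the shares computed over the cells' chains and the named genes, 4 had differences between shared and unshared cells of opposite sign in the mice; with 1 mouse per genotype, these contrasts between mice were not tested. TRBJ1-3 was 3.40 points (0.528 to 6.996) higher in shared cells in 564Igi and differed by -3.60 points (-5.39 to -1.01) in WT. More than 1 productive alpha chain differed by 1.39 points in 564Igi and -2.73 in WT. A beta chain found in the other mouse differed by 0.346 points in 564Igi and -1.50 in WT. A beta CDR3 of at most 14 amino acids differed by -0.712 points in 564Igi and 1.91 in WT. The intervals of all but TRBJ1-3 included 0 in both mice. Means of the beta chain differed in sign too, by far less than their SD. Beta UMIs averaged 12.9 ± 8.16 in shared and 12.4 ± 8.39 in unshared cells in 564Igi, and 12.6 ± 7.91 and 13.2 ± 8.93 in WT. Beta CDR3 length averaged 13.71 and 13.68 amino acids in 564Igi, and 13.69 and 13.74 in WT.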

How the results depend on the processing

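No paired analysis was possible because there was 1 mouse per genotype and the labels carry no replicate numbers; for the same reason no mouse could be left out. The values below are shares in percent or differences in points, shared minus unshared. Some alternatives change which cells count as shared, and the cause of a shift was not tested under any of them. The sign of the difference in non-germline bases (at most 3) was kept in 13 of 13 alternatives in each mouse, and that in short CDR3 loops, TRAJ22, TRAJ30, TRAJ6 and TRBJ1-3 in 12 of 12. The sign was kept less often for beta recovery (7 of 12 in 564Igi, 11 of 12 in WT), shared beta chains (9 of 12 and 10 of 12), chains with more than 1 form (10 of 11 in each mouse) and TRBJ1-6 in 564Igi (11 of 12).

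With a minimum of 5 UMIs, 96 chains were shared, in 7.45% of cells in 564Igi and 10.4% in WT; 1 TRAJ gene was higher and 0 were lower in both mice. In WT the difference was then 2.36 for shared beta chains, 0.969 for beta recovery and 21.9 for chains in 2 or more cells. With the merged V gene matched too, 100 chains were shared, in 3.47% of cells in 564Igi and 4.71% in WT, with 1 TRAJ gene higher and 0 lower. Nucleotide identity was then 64%, and the difference in CDR3 loops of at most 13 amino acids was 10.5 in 564Igi and 5.47 in WT. Chains in 2 or more cells differed by 18.0 in 564Igi and 9.28 in WT, and at most 3 non-germline bases by 22.6 in WT. The difference in chains with more than 1 form was -2.66 in 564Igi and -3.03 in WT, both of opposite sign to that reported, and the TRAJ30 difference was 0.555 in WT. With nucleotides matched, 108 chains were shared, in 3.90% of cells in 564Igi and 5.18% in WT, with 1 TRAJ gene higher and 0 lower. V gene agreement was then 59.3%, chains in 2 or more cells differed by 21.3 in 564Igi and 13.8 in WT, short loops by 11.7 in WT and beta recovery by -6.48 in WT.

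With exactly 1 productive alpha chain the shared part was 9.57% in 564Igi and 12.9% in WT, and 2 TRAJ genes were lower in both mice. With barcodes called in both tables kept it was 12.3% in 564Igi. With the invariant natural killer T chain kept it was 12.3% in 564Igi, where short loops differed by 8.45, TRAJ20 to TRAJ39 by 5.78 and chains in 2 or more cells by 38.9. With TRAJ22 and TRAJ30 not counted, an alternative chosen after seeing the data, TRAJ20 to TRAJ39 differed by -0.67 in 564Igi and 1.89 in WT. With germline ends read at a share of 70%, at most 3 non-germline bases differed by 29.4 in 564Igi and 30.8 in WT. Other values were counted as unmoved, 208 of the main results and 135 gene values, while 9 gene values moved further. Unmoved meant inside the interval of the reported value. Numbers of chains or genes have no interval and were counted as unmoved when equal or within a set ratio. V agreement under V matching, identity and forms under nucleotide matching, and forms and cells per chain with each distinct chain counted once have no value by construction. Rare genes and chains of 1 cell limit what these cell numbers can show.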
